A study of Homo sapiens with 6 samples.

Results

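The 31 genes described here encode the glucose and lactate transporters, the enzymes and the regulators of glycolysis, and enzymes of the pentose phosphate pathway. They were taken by symbol from a fixed list, and all 31 were found among the 67060 genes of the count table after its Ensembl identifiers had been matched to GENCODE symbols. Counts came from SH-SY5Y, a human neuroblastoma line labelled as a neuronal progenitor, infected for 24 h with 0.5 µl of one of 2 adenoviruses. The test virus, Ad CMV 3xFlag-*Esrrg*, carries the mouse *Esrrg* coding sequence with a 3xFlag tag behind the CMV promoter, which is active in most cell types, and the control virus, Ad CMV GFP, carries GFP. Both groups therefore had an adenoviral infection in common, and no uninfected cells were compared here. Total RNA was sequenced after ribosomal RNA depletion in 3 libraries per group: control replicates 1, 3 and 4, and Ad CMV 3xFlag-*Esrrg* replicates 2, 3 and 4.

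Glycolysis converts glucose to pyruvate in a preparatory stage that spends ATP and a payoff stage that returns ATP and NADH, and lactate dehydrogenase then converts pyruvate to lactate. The pentose phosphate pathway branches off at glucose 6-phosphate, yields NADPH and ribose 5-phosphate, and rejoins glycolysis through transketolase and transaldolase. ERRγ, the product of *ESRRG*, is an orphan nuclear receptor best known for activating genes of mitochondrial oxidative metabolism.

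The libraries held between 24969759 and 40859666 reads on genes. Reads assigned to no gene made up 51.3 to 52.2% of all reads with Ad CMV GFP, but 46.6, 31.6 and 29.5% in Ad CMV 3xFlag-*Esrrg* replicates 2, 3 and 4. Replicate 2 of the Ad CMV 3xFlag-*Esrrg* group thus stood nearer to the control libraries than the other two of its group, and it is given apart where it decides a value. *ESRRG* rose from 87.0 ± 3.40 to 707 ± 119 CPM (read counts relative to the library's total on genes, after TMM scaling, mean ± SD, n = 3). Its log2 fold change was 3.02 (SE 0.14, edgeR adjusted p = 6.3e-07). These are counts on the human gene, and the virus carries the mouse coding sequence. How many of these reads came from the virus and how many from the cells' own gene was not tested. Of 12 markers of sympathoadrenal neuroblastoma, 10 were tested, and their summed level was 900 to 961 CPM with Ad CMV GFP and 636 to 827 CPM with Ad CMV 3xFlag-*Esrrg*. *HAND2*, a factor of this lineage, stood at 367 and 264 CPM in the 2 groups, whereas *TH* and *CHGA*, which define the mature catecholaminergic cell, were listed at 0 in every library. All 31-base words of the *CHGA* exons, but none of those of *TH*, recur elsewhere in the genome assembly. Among 17 markers of other cells, 8 never exceeded 3 counts in a library, while *COL3A1* stood at 2602 and 2536 CPM in the 2 groups and carried most of a sum of 3100 to 3200 and 2906 to 3166 CPM. What part such shifts in cell state or RNA composition have in the results below was not tested, and in bulk RNA more cells of a type and more RNA per cell cannot be told apart.

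The pathway genes were higher with Ad CMV 3xFlag-*Esrrg* along most of the route from glucose to pyruvate. Of the 31 genes, 28 had enough reads to be tested, and 20 of these were called higher, 0 lower and 8 neither, where a call needed an edgeR adjusted p below 0.05 and a change of at least 1.5-fold. Among all 24500 genes tested, 17.3% were called higher and 16.8% lower. The share called higher was 25.9% among the 13746 protein-coding genes, and among the 9533 of them with a mean of at least 10 CPM it was 30.4%. Over the 28 genes the log2 fold change had a median of 1.07, beside -0.10 for all tested genes and 0.22 for those 9533. Individual values ran from -0.26 (*PFKFB4*) to 1.996 (*ENO1*). All 3 Ad CMV 3xFlag-*Esrrg* libraries lay above all 3 control libraries for 23 of the 28 genes and below them for 3, against 27.8% and 30.3% of all tested genes.

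Within the Ad CMV 3xFlag-*Esrrg* group, replicate 2 had the lowest level for 25 of the 28 genes. Relative to the control mean, the median gene stood 0.68 higher on the log2 scale in replicate 2, 1.16 in replicate 3 and 1.26 in replicate 4. Without replicate 2 the median log2 fold change was 1.32 and 22 genes were called, with *HK2* and *RPIA* added. Over all tested genes 22.9% were called higher in that fit. By the level of the median gene, the order of the 3 libraries was the reverse of that by their share of reads outside genes. The part of that share in the changes cannot be told apart from the virus. When it entered the fit as a covariate, 12 genes were called higher and the median was 0.46. With this covariate 7.24% of all tested genes were called higher, and the median over all tested genes was 0.02.

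**Figure D1:**
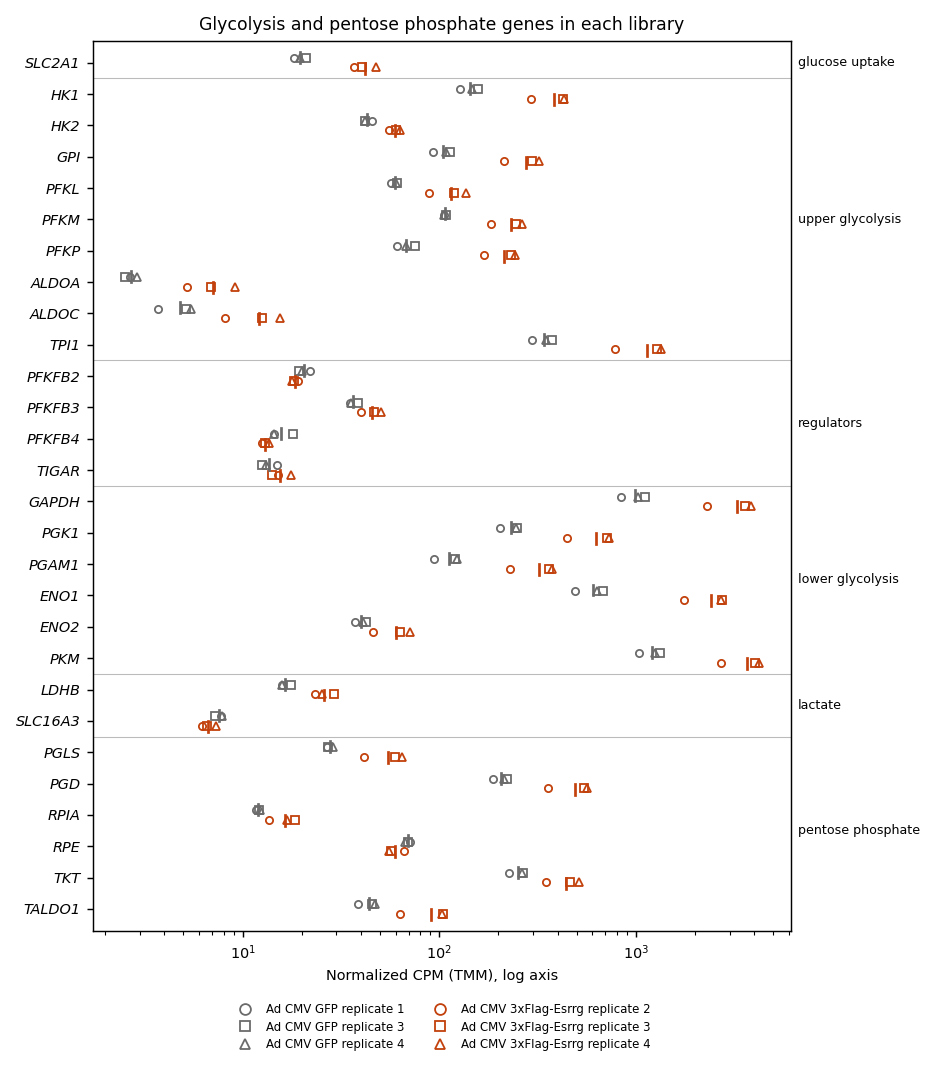
Normalized CPM (TMM scaling, log axis) of the 28 tested genes in each of the 6 libraries, grouped by role, with a vertical bar at each group mean (n = 3). Grey symbols (Ad CMV GFP) and orange symbols (Ad CMV 3xFlag-*Esrrg*) separate for most enzymes and interleave or nearly touch for the regulators, with replicate 2 (orange circle) usually the lowest of its group.

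Summed over the 31 genes, the pathways took up 0.473, 0.582 and 0.555% of the reads on genes in control replicates 1, 3 and 4. The corresponding shares were 1.04, 1.33 and 1.36% in Ad CMV 3xFlag-*Esrrg* replicates 2, 3 and 4. The means were 0.536 ± 0.0567% and 1.24 ± 0.176% (SD, n = 3), and every Ad CMV 3xFlag-*Esrrg* library was above every control library. *GAPDH*, *PKM* and *ENO1* alone supplied 56.6 to 59.5% of these reads in control libraries and 65.4 to 66.6% in the others.

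**Figure D2:**
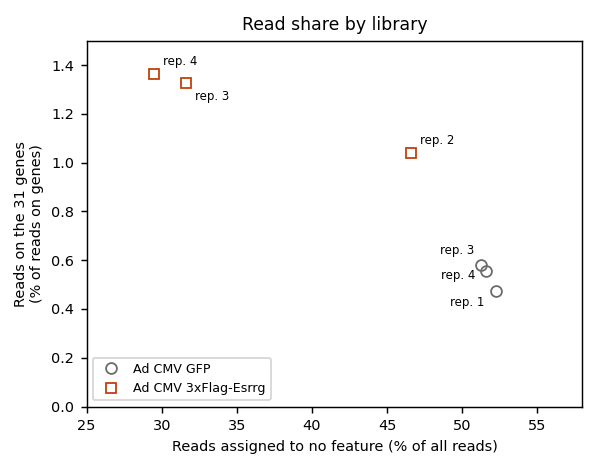
Share of the reads on genes that fell on the 31 genes (vertical axis, %) against the share of all reads assigned to no gene (horizontal axis, %), 1 point per library. The 3 control libraries lie together near 0.5% and 52%, and the Ad CMV 3xFlag-*Esrrg* libraries lie at 1.04 to 1.36%, with replicate 2 between the control libraries and the other two on the horizontal axis.

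Promoter sequences, given here so that the genes can be seen beside their changes, were read from RefSeq (build GRCh38.p14), which held 28 of the 31 genes (not *PFKFB2*, *SLC16A1* and *SLC2A3*) as windows of 250 bases before and 50 bases after each start site. A total of 3 motifs were searched on both strands: TCAAGGTCA, the full ERR response element, AAGGTCA, the core contained in it, and CACGTG, the E-box read by MYC and HIF family factors. The full element was found in 0 of the 28 genes and in 0.432% of all 27305 gene symbols in the table. The core was found in 5 of the 28, which were *ALDOC*, *PFKM*, *PFKP*, *RPE* and *TPI1*, and in 4.80% of all symbols. The E-box was found in 6, which were *ALDOA*, *ALDOC*, *GAPDH*, *HK2*, *LDHA* and *PFKFB3*, and in 8.78% of all symbols. A gene counted when any of its windows held the motif. The 28 genes had 53 windows and the 27305 symbols had 35116, so the 28 had more windows per gene. Their counts and the shares of all symbols are therefore not like for like. Of the 5 genes with a core 4 were called higher, and of the 6 with an E-box 3 were. *LDHA*, which is among the 6, had too few reads to be tested. Of all 28 tested pathway genes 20 (71.4%) were called higher, and the motif counts were not tested against this share. A match is only a run of letters in this window, and that of *TPI1* lies after its start site and is not printed. Below are 4 stretches with the core in capitals, as AAGGTCA or its complement TGACCTT, for the paralogous kinases *PFKP* (chr10:3068939-3068992, + strand) and *PFKM* (chr12:48122454-48122513, + strand), for *ALDOC* (chr17:28577068-28577127, - strand), and for *RPE* (chr2:210002404-210002463, + strand), the single one of the 5 that was not called.
PFKP: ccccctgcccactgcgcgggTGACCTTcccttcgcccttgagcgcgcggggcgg
PFKM: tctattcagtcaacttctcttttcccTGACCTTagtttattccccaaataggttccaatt
ALDOC: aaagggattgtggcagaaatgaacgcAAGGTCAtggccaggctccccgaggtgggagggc
RPE: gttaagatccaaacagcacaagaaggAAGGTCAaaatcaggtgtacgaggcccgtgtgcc
The next 3 hold the E-box in capitals, for *GAPDH* (chr12:6535157-6535215, + strand), which rose, for *HK2* (chr2:74834950-74835053, + strand), which was not called, and for *LDHA* (chr11:18394352-18394508, + strand), which had almost no reads.
GAPDH: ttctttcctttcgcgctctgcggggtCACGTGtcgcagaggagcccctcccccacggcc
HK2: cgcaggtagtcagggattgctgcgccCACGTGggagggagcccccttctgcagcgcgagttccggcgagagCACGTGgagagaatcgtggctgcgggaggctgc
LDHA: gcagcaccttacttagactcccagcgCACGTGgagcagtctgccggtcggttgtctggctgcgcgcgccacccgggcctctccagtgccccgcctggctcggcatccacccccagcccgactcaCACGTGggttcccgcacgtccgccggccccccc
The last pair, with no motif to mark, are the 100 bases before the start sites of *ENO1* (chr1:8878687-8878786, - strand) and *ENO2* (chr12:6914480-6914579, + strand), whose ratio moved most among the paralogs.
ENO1: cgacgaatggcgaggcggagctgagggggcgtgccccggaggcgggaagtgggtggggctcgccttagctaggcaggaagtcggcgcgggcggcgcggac
ENO2: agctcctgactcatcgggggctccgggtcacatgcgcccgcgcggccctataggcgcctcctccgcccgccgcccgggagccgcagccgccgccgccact

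*SLC2A1* encodes GLUT1, the glucose carrier found in most dividing cells. Its level was 18.2, 21.1 and 19.6 CPM in control replicates 1, 3 and 4 and 36.9, 40.4 and 47.9 CPM in Ad CMV 3xFlag-*Esrrg* replicates 2, 3 and 4. The groups did not overlap, and the log2 fold change was 1.09 (SE 0.12, edgeR adjusted p = 8.0e-05). The neuronal transporter GLUT3, *SLC2A3*, had 5, 8 and 5 counts in control libraries and 3, 2 and 13 in the others, too few to be tested.

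In the preparatory stage 8 of 9 genes rose, with a median log2 fold change of 1.40. *HK1*, the hexokinase that phosphorylates glucose in brain, stood at 127, 157 and 146 CPM with Ad CMV GFP and at 292, 425 and 430.2 CPM with Ad CMV 3xFlag-*Esrrg*. It was 2.66-fold higher (log2 1.41, SE 0.16, edgeR adjusted p = 8.6e-05). *HK2*, the inducible hexokinase of muscle and many tumours, went from 45.4, 42.0 and 42.0 CPM to 55.4, 60.7 and 63.1 CPM. These libraries did not overlap either, but a log2 fold change of 0.47 (SE 0.09, edgeR adjusted p = 0.0021) was under 1.5-fold and *HK2* was not called. *GPI*, the isomerase that makes fructose 6-phosphate, was 2.64-fold higher (log2 1.40, SE 0.15).

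Phosphofructokinase, which commits the sugar to glycolysis, is built from the products of *PFKL*, *PFKM* and *PFKP*, and all 3 genes rose. *PFKP*, the platelet-type subunit, rose most, from 60.7, 75.3 and 68.0 CPM to 168, 232 and 242 CPM, a log2 fold change of 1.65 (SE 0.15, edgeR adjusted p = 2.9e-05). The muscle-type subunit *PFKM* went from 105.7 to 108.5 CPM in control libraries to 184, 246 and 263 CPM (log2 1.12, SE 0.13). The liver-type subunit *PFKL* went from 57.0, 61.0 and 60.0 CPM to 88.8, 119 and 137 CPM (log2 0.95, SE 0.14) and was called in 14 of 17 alternative fits. *PFKP* and *PFKM* have a core in the stretches above, and *PFKL* had no match to the core. Whether a core goes with the size of a change was not tested.

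Aldolase splits fructose 1,6-bisphosphate, and triose phosphate isomerase, *TPI1*, interconverts the resulting triose phosphates. *TPI1* was at 297, 373.5 and 348 CPM with Ad CMV GFP and at 789, 1279 and 1339 CPM with Ad CMV 3xFlag-*Esrrg*. With a 3.34-fold difference (log2 1.74, SE 0.19, edgeR adjusted p = 8.6e-05) it showed the second largest change of the 28. *ALDOA* rose from 2.66, 2.52 and 2.90 CPM to 5.20, 6.89 and 9.16 CPM (log2 1.40, SE 0.21), and *ALDOC*, the brain aldolase, from 3.72, 5.14 and 5.50 CPM to 8.12, 12.6 and 15.6 CPM (log2 1.34, SE 0.23). *ALDOA* (chr16:30064164-30070457, + strand, GRCh38) shares 42.8% of its exon bases with a second annotated gene on the same strand, and by default HTSeq sets reads on both genes aside as ambiguous. Per kilobase of exon it had the lowest control level of the tested genes (0.704 CPM), and that level is uncertain.

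In the payoff stage 6 of 6 genes were called higher, with log2 fold changes from 0.59 (*ENO2*) to 1.996 (*ENO1*) and a median of 1.56. The difference from the preparatory stage was not tested. *GAPDH*, which oxidizes glyceraldehyde 3-phosphate, stood at 840, 1109 and 1028 CPM with Ad CMV GFP and at 2296, 3606 and 3865 CPM with Ad CMV 3xFlag-*Esrrg*. That was a 3.28-fold difference (log2 1.71, SE 0.20, edgeR adjusted p = 0.00011). *PGK1*, the first ATP-forming kinase, was 2.703-fold higher (log2 1.43, SE 0.18), from 203 to 249.6 CPM in control libraries to 446, 711.5 and 727 CPM. *PGAM1*, the mutase, was 2.86-fold higher (log2 1.52, SE 0.18), from 94.2 to 123 CPM to 229, 361.5 and 376 CPM. For all 3, replicate 2 of the Ad CMV 3xFlag-*Esrrg* group was the lowest of its group and still above every control library.

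*ENO1*, the ubiquitous enolase (chr1:8861000-8879190, - strand), changed most of the 28 genes. Its level was 490.2, 683.5 and 635 CPM in control replicates 1, 3 and 4 and 1752, 2742 and 2719 CPM in Ad CMV 3xFlag-*Esrrg* replicates 2, 3 and 4. The groups lay far apart, with a 3.99-fold difference (log2 1.996, SE 0.20, edgeR adjusted p = 5.1e-05), and 0.812% of all tested genes had a larger log2 fold change. *ENO2*, the neuron-specific enolase (chr12:6913745-6923698, + strand), was at 37.4, 42.5 and 41.0 CPM and at 46.3, 63.5 and 71.3 CPM. Its log2 fold change of 0.59 (SE 0.14, edgeR adjusted p = 0.0072) lay at the 1.5-fold limit. It was called in 7 of 17 alternative fits and lost the call without control replicate 1 or Ad CMV 3xFlag-*Esrrg* replicate 3 or 4. *PKM*, the pyruvate kinase that makes pyruvate and ATP, went from 1040, 1336 and 1258 CPM to 2705, 4065 and 4248 CPM, a 3.03-fold difference (log2 1.60, SE 0.19, edgeR adjusted p = 0.00011).

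Per kilobase of exon, *GAPDH* was the most abundant of the tested genes in both groups, at 414 CPM per kb with Ad CMV GFP and 1359 with Ad CMV 3xFlag-*Esrrg*. *PKM* (141), *TPI1* (126) and *ENO1* (116) followed in control libraries, and their order was *ENO1* (461), *PKM* (428) and *TPI1* (420.5) with Ad CMV 3xFlag-*Esrrg*. Of the 31-base words in exons, 66.0% in *PGAM1*, 42.4% in *GPI* (37.3% on alternate contigs), 29.0% in *HK2*, 26.9% in *TPI1* and 26.8% in *GAPDH* also occur elsewhere in the genome, so reads of these genes can be lost to other copies and their levels are uncertain. The 65 *GAPDH* pseudogenes in the table together held 4.13% of the *GAPDH* level with Ad CMV GFP and 1.06% with Ad CMV 3xFlag-*Esrrg*.

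The bifunctional and regulatory enzymes, which set the level of fructose 2,6-bisphosphate, the activator of phosphofructokinase, were not called: 0 of 4 passed in either direction, with a median log2 fold change of 0.02. *PFKFB3*, the isoform with the strongest kinase activity, was at 35.1, 38.7 and 35.4 CPM with Ad CMV GFP and at 40.2, 46.7 and 50.5 CPM with Ad CMV 3xFlag-*Esrrg* (log2 0.33, SE 0.11, edgeR adjusted p = 0.026). *PFKFB2* was at 22.03, 19.4 and 19.97 CPM and at 19.1, 18.2 and 17.8 CPM (log2 -0.16, SE 0.10, adjusted p = 0.22). *PFKFB4* was at 14.4, 18.0 and 14.4 CPM and at 12.6, 13.0 and 13.7 CPM (log2 -0.26, SE 0.12, adjusted p = 0.099). For *PFKFB3* the libraries with Ad CMV 3xFlag-*Esrrg* were all higher, and for *PFKFB2* and *PFKFB4* all lower, by less than 1.5-fold each, and the sign of *PFKFB2* turned with the GC and length correction. *TIGAR*, which removes fructose 2,6-bisphosphate, was at 12.6 to 14.9 CPM and at 14.1 to 17.6 CPM, so its groups overlapped (log2 0.20, SE 0.12, adjusted p = 0.19), and its sign turned under scaling by library size.

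At the lactate end 1 of the 2 tested genes rose. *LDHB*, the dehydrogenase subunit favoured in oxidative tissues, went from 15.9, 17.6 and 15.8 CPM to 23.5, 29.2 and 25.4 CPM (log2 0.67, SE 0.11, edgeR adjusted p = 0.00081) and was called in 12 of 17 alternative fits, but not without Ad CMV 3xFlag-*Esrrg* replicate 3. *SLC16A3*, the lactate exporter MCT4, was at 7.77, 7.24 and 7.88 CPM and at 6.21, 6.59 and 7.31 CPM, with overlapping groups (log2 -0.19, SE 0.13, adjusted p = 0.26). *LDHA*, the subunit that favours lactate formation (chr11:18394560-18408425, + strand), had 0, 0 and 3 counts in control libraries and 2, 0 and 1 in the others, and *SLC16A1*, the transporter MCT1, had at most 1 count in any library. Both were therefore at or under 3 counts in all 6 libraries and no fold is given. Repeated sequence covered 16.8% of the *LDHA* words and 7.92% of the *SLC16A1* words, and the *LDHA* exons overlapped no other gene of GENCODE release 44. Why these libraries hold so few reads of both genes was not tested, and no statement on lactate formation can be drawn from them.

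In the pentose phosphate branch 4 of 6 genes rose, with a median log2 fold change of 0.90. *PGD*, the 6-phosphogluconate dehydrogenase that yields NADPH, stood at 187, 221.5 and 213 CPM with Ad CMV GFP and at 358, 543 and 568 CPM with Ad CMV 3xFlag-*Esrrg* (log2 1.24, SE 0.17, edgeR adjusted p = 0.00023). *PGLS*, the lactonase one step before it, went from 26.9, 27.2 and 28.9 CPM to 41.5, 59.6 and 64.5 CPM (log2 1.00, SE 0.15, adjusted p = 0.00041). Both oxidative-branch genes were thus higher without overlap.

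In the non-oxidative branch, transaldolase, *TALDO1*, went from 38.6, 45.5 and 47.2 CPM to 63.4, 105 and 103 CPM (log2 1.05, SE 0.18, edgeR adjusted p = 0.00079). Transketolase, *TKT*, went from 226.5, 267 and 263 CPM to 349, 464 and 516 CPM (log2 0.81, SE 0.15, adjusted p = 0.0012) and was called in 12 of 17 alternative fits. The isomerase *RPIA* was at 11.7, 12.1 and 12.3 CPM and at 13.7, 18.5 and 16.9 CPM, higher in every library but not called (log2 0.45, SE 0.13, adjusted p = 0.014). The epimerase *RPE* was at 70.7, 69.6 and 66.9 CPM and at 66.4, 57.2 and 55.6 CPM (log2 -0.21, SE 0.10, adjusted p = 0.099), lower in every library and not called, and its sign turned when the covariate or the GC and length curves were used. Its exons lie to 23.8% opposite those of *KANSL1L*. If strand was ignored in counting, reads in that stretch would be set aside as ambiguous, and the strand setting is not stated.

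**Figure D3:**
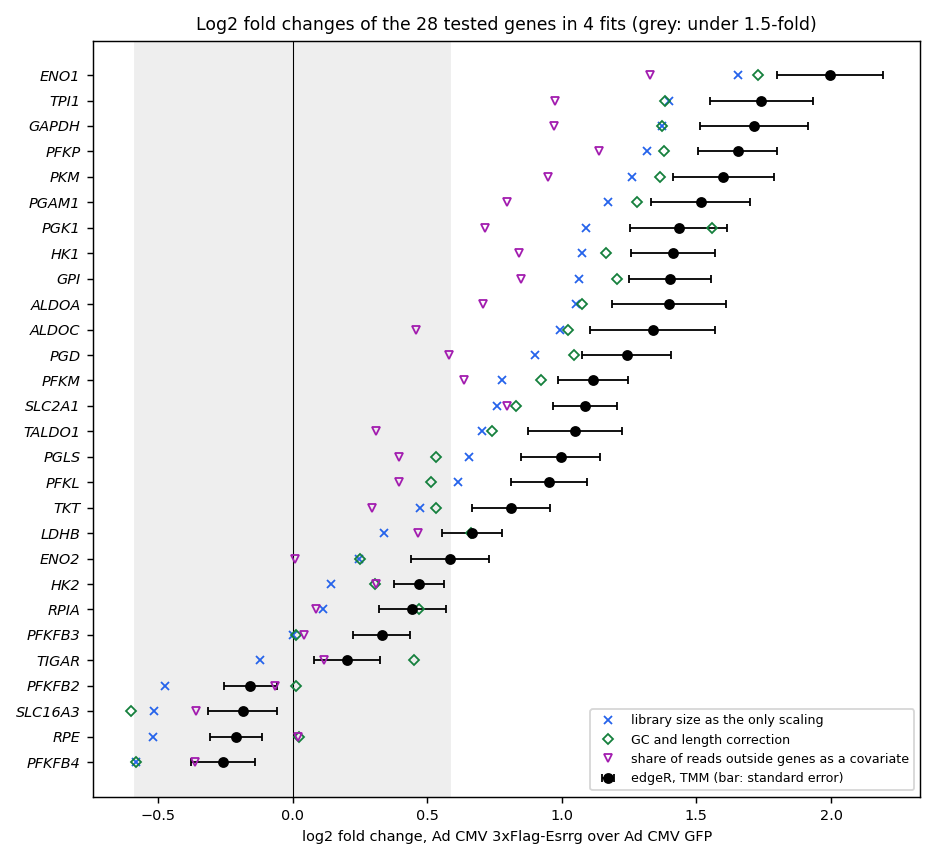
Log2 fold change (Ad CMV 3xFlag-*Esrrg* over Ad CMV GFP) of the 28 tested genes in the edgeR fit with TMM scaling (black, bar: standard error, n = 3 per group) and in 3 alternative fits, with changes under 1.5-fold shaded grey. *ENO1* is at the top at 1.996 and *PFKFB4* at the bottom at -0.26, and the fit that takes reads outside genes as a covariate (triangles) lies below the TMM fit for the 20 called genes.

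The size of these changes moved with the scaling, since scaling by library size alone lowered the median log2 fold change of all tested genes from -0.10 to -0.42. With that scaling 8.98% of all tested genes were called higher and 7566 lower, and the split of calls between higher and lower went from 50.7% higher to 22.5%. Under the same scaling 17 of the 28 pathway genes were called higher and 0 lower, with a median of 0.73. Correcting for GC content and length left 16 higher and 1 lower (*SLC16A3*), with a median of 0.78. With this correction 15.2% of all 24232 genes tested were called higher and 3188 genes lower. *SLC2A1*, *HK1*, *GPI*, *PFKM*, *PFKP*, *ALDOA*, *TPI1*, *GAPDH*, *PGK1*, *PGAM1*, *ENO1* and *PKM* were called higher in all 17 alternative fits, which made 12 of the 20 called genes.

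Ratios between 2 genes of one enzyme family within a library do not depend on how libraries are scaled. Of 11 such pairs 8 had both genes tested, and in 7 of these the ratios of the groups did not overlap, beside 82.3% of all 378 pairs of the tested genes, so separation by itself was the common case. With 3 libraries per group the exact permutation test cannot go below p = 0.1, and all 7 pairs had this value (adjusted p = 0.1143 over the 8 pairs, two-sided).

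The enolases moved apart most. The log2 ratio of *ENO2* to *ENO1* was -3.71, -4.01 and -3.95 in control replicates 1, 3 and 4 and -5.24, -5.43 and -5.25 in Ad CMV 3xFlag-*Esrrg* replicates 2, 3 and 4. Relative to *ENO1*, the neuron-specific gene was thus 2.67-fold lower, a difference of -1.42 (SD 0.16 and 0.11 within the groups, n = 3 each). The log2 ratio of *HK2* to *HK1* was -1.48, -1.91 and -1.80 with Ad CMV GFP and -2.40, -2.81 and -2.77 with Ad CMV 3xFlag-*Esrrg*, a difference of -0.93.

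Among the phosphofructokinase genes the ratio shifted to *PFKP*. Its log2 ratio to *PFKM* was -0.80, -0.53 and -0.64 in control libraries and -0.13, -0.09 and -0.12 in the others, a difference of 0.54. Its ratio to *PFKL* differed by 0.71, and that of *PFKL* to *PFKM* by -0.17. The log2 ratio of *PFKFB4* to *PFKFB3* differed by -0.58 and that of *PFKFB3* to *PFKFB2* by 0.48, although none of the 3 genes was called on its own. The aldolase ratio did not separate the groups, since the log2 ratio of *ALDOC* to *ALDOA* was 0.48, 1.02 and 0.92 with Ad CMV GFP and 0.64, 0.87 and 0.77 with Ad CMV 3xFlag-*Esrrg* (difference -0.05, exact permutation p = 0.9).

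**Figure D4:**
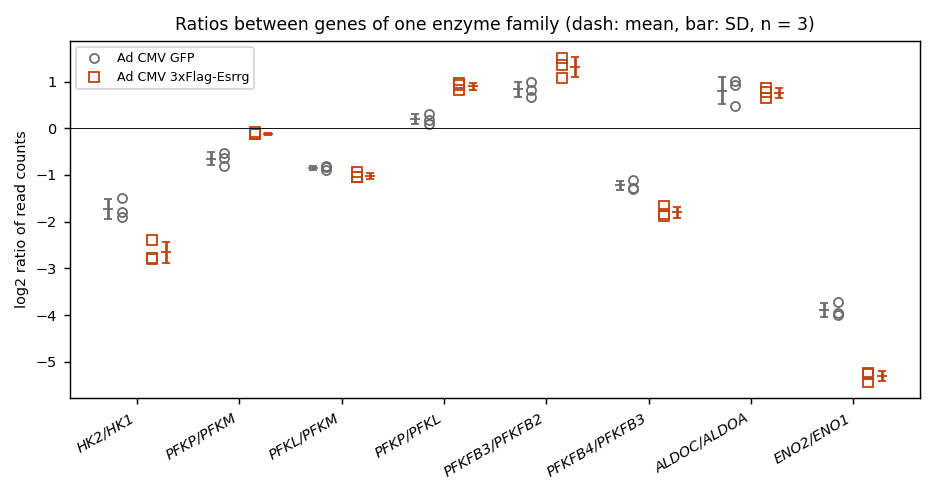
Log2 ratio of the read counts of 2 genes of one enzyme family in each library (circles Ad CMV GFP, squares Ad CMV 3xFlag-*Esrrg*, dash and bar the mean and SD, n = 3). The *ENO2* to *ENO1* ratio drops from about -3.9 to -5.3, and the *ALDOC* to *ALDOA* ratio is the single pair with overlapping groups.

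Of 46 further glycolysis, glucose transport and pentose phosphate genes, 30 were tested, with a median log2 fold change of -0.07. Of these 8 (26.7%) were called higher and 5 lower. The shares called higher and lower were 17.3 and 16.8% over all tested genes, and 25.9 and 12.4% over protein-coding genes. The share called higher thus lay near that of protein-coding genes and above that of all tested genes. *HK3*, the hexokinase of leukocytes, rose from 0.51 to 3.63 CPM (log2 2.83, SE 0.22, edgeR adjusted p = 1.4e-05), *PGM1*, which links glycogen to glycolysis, from 50.5 to 115 CPM (log2 1.18, SE 0.16), and *PGAM5*, a mitochondrial phosphatase of the mutase family, from 41.2 to 114 CPM (log2 1.47, SE 0.15). *FBP1*, which runs the phosphofructokinase step in reverse in gluconeogenesis, fell from 0.66 to 0.18 CPM (log2 -1.86, SE 0.36, adjusted p = 0.0017), and *SLC2A13*, a myo-inositol transporter, from 16.9 to 8.03 CPM (log2 -1.08, SE 0.13). *PGAM4*, an intronless copy related to *PGAM1*, fell from 1.04 to 0.50 CPM (log2 -1.04, SE 0.31, adjusted p = 0.019). *BSG*, the chaperone that carries MCT1 and MCT4 to the membrane, rose from 310.3 to 668 CPM (log2 1.11, adjusted p = 0.00022).

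The genes that take pyruvate onwards were set beside these as a comparison. Of 23 genes of pyruvate entry and the TCA cycle, all tested, 19 (82.6%) rose and 0 fell. Their median log2 fold change was 1.12, close to the 1.07 of the 28 genes above. *MPC1*, a subunit of the mitochondrial pyruvate carrier, rose from 10.2 to 35.7 CPM (log2 1.81, SE 0.15, edgeR adjusted p = 2.3e-05), and *OGDH*, a subunit of the oxoglutarate dehydrogenase complex, from 118 to 394 CPM (log2 1.74, SE 0.14). Of 15 hypoxia-response genes outside glycolysis, which share regulators with the glycolytic enzymes, 6 (40.0%) rose and 0 fell, with a median of 0.39. For both lists, the shares called higher over all tested genes and over protein-coding genes were 17.3% and 25.9%. Among protein-coding genes with a mean of at least 10 CPM the share was 30.4%. *VEGFA*, the angiogenic growth factor, rose from 15.2 to 37.4 CPM (log2 1.30, SE 0.10), *BHLHE40*, a transcriptional repressor, from 4.90 to 12.9 CPM (log2 1.40, SE 0.16) and *ADM*, the vasodilator adrenomedullin, from 4.78 to 10.7 CPM (log2 1.17, SE 0.20). The differences between the lists were not tested.

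**Figure D5:**
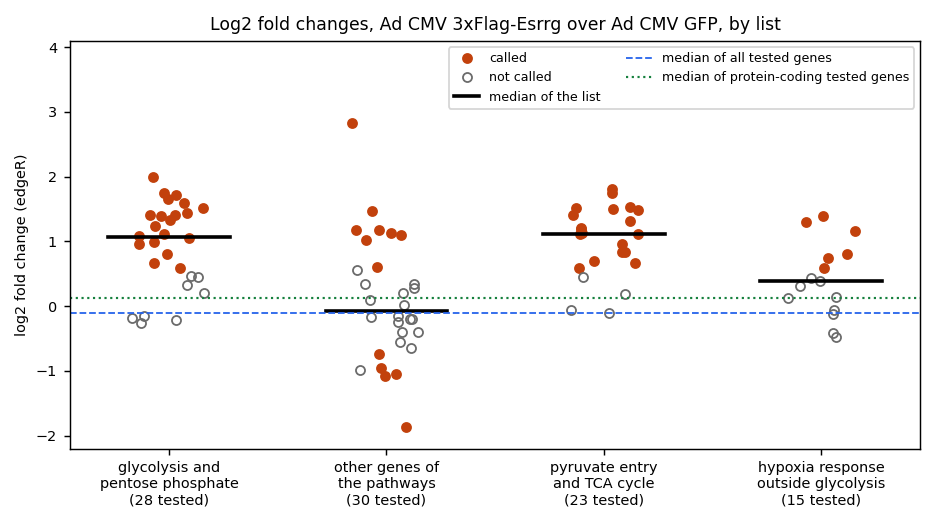
Log2 fold changes (edgeR) of the tested genes of 4 lists, with called genes filled and the median of each list as a bar, beside the medians of all tested genes and of protein-coding genes (lines). The glycolysis and pentose phosphate genes (median 1.07) and the genes of pyruvate entry and the TCA cycle (1.12) lie mostly above both lines, and the other genes of the pathways (-0.07) spread to both sides.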

How the data were processed

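The authors deposited raw counts per human gene for 6 SH-SY5Y libraries. Per the labels, directional libraries were made after ribosomal RNA depletion, and the submitters' processing notes name CASAVA, Trim Galore 0.6.7, STAR 2.7.9a, HTSeq 0.11.3, DESeq2 and the build GRCh38. The annotation release and strand setting are not given in the sources used here. The 5 summary entries (reads on no gene, ambiguous or not unique), which held 52.3 to 64.0% of reads, were left out of library sizes and tests. Identifiers were matched without version to GENCODE release 44 (60419 of 67060, 90.1%), and the 6641 others held 0.153% of the counts. All genes were fitted in edgeR 4.0.16 (R 4.3.3): filterByExpr, TMM, quasi-likelihood test, adjusted p (Benjamini-Hochberg over all 24500 tested genes) below 0.05 and at least 1.5-fold. Ratios of counts used 0.5 added to each count. The labels do not say that libraries came from separate cultures, so p-values measure only the spread between these libraries. All 31 genes were named, together with *ESRRG* and, from each comparison list, the 3 called genes of largest change in each direction. A gene that this rule selects is not reported here by name. The genes, lists and tests were chosen with earlier results of these data known, and *BSG* and the reference transcripts were picked after their values were seen. Alternatives were DESeq2 1.42.0, RLE and library size scaling, other filters and cutoffs, a 1.5-fold threshold test, only protein-coding genes, leaving out each library, a replicate block, GC and length curves (mgcv 1.9.3, values for 98.9% of tested genes) and the share of reads outside genes. Sequence uniqueness was counted in words of 31 bases. The fits were tested on simulated data. Figures used matplotlib 3.10.9.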

Additional observations from a re-analysis of the deposited data

Results flagged for a closer look

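Data outside the gene counts also differed between the groups. Reads overlapping several genes reached 9.84% of all reads in Ad CMV 3xFlag-*Esrrg* replicate 3, above 4.55 to 4.87% in the control libraries. Reads aligned to several places reached 13.0% in Ad CMV 3xFlag-*Esrrg* replicate 4, above 7.16 to 7.41% in the control libraries. Such reads were assigned to no gene. In replicate 2 of the same group the shares were 5.69 and 9.33%. Their part in the fold changes was not tested.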

How the results depend on the processing

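The count of 20 genes called higher ranged from 12 (reads outside genes as a covariate) to 23 (no fold cutoff) over the alternatives. The 2-fold cutoff left 15. Over all tested genes the share called higher was 17.3% in the main fit. It was 7.97% at the 2-fold cutoff, 24.3% with no fold cutoff and 7.24% with the covariate. Of the 28 genes, 1 was called lower under GC and length correction. With the replicate block added there were 2 (*SLC16A3* and *PFKFB4*), and otherwise 0. The median of 1.07 moved to 0.73 (library size only), 0.78 (GC and length), 0.82 (GC, length and replicate block) and 0.46 (the covariate). Leaving out each library gave 18 to 22 higher, 0 lower, a median of 0.97 to 1.32 (highest without Ad CMV 3xFlag-*Esrrg* replicate 2), 2.96 to 3.26 for *ESRRG* and 7 to 8 separated ratios. Signs turned for *PFKFB2* (0.011 with the GC and length correction, 0.056 with the block as well), *RPE* (0.026 and 0.038 in these, 0.020 with the covariate) and *TIGAR* (-0.12 with library size only), none of them called, and for the *ALDOC* to *ALDOA* ratio (-0.21 without control replicate 1, but 0.058, 0.0058 and 0.0091 without control replicate 3, control replicate 4 and Ad CMV 3xFlag-*Esrrg* replicate 2). The cause was not tested. Over all 476 values of the 28 genes in 17 fits, 437 kept direction and call, 28 lost the call, 5 gained it and 6 turned sign. Whether replicate numbers 3 and 4, present in both groups, mark a pairing is not stated. Correlations of deviations were 0.075 and -0.000102 for equal numbers, and 0.0999 and 0.0184 for unequal ones. With 3 libraries per group these values cannot decide whether there was a pairing. The replicate block, possible only for numbers 3 and 4, gave 20 higher, a median of 1.15 and 8 ratios of one direction. Over all genes it gave 4742 higher and 5693 lower, against 4234 and 4117. In the comparison lists, calls among the other pathway genes ranged from 5 to 10 higher (main 8) and 2 to 9 lower (main 5), TCA genes from 10 to 20 higher (main 19), and hypoxia-response genes from 2 to 7 higher (main 6) and 0 to 2 lower (main 0). *SLC2A3*, *LDHA* and *SLC16A1* had too few reads for a test, and the cause of their low counts was not tested.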

Other observations

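*GAPDH* is itself a common reference transcript for PCR, and other such transcripts, chosen after its values were seen, also moved in these libraries. *RPLP0* rose from 1095 ± 125 to 2647 ± 769 CPM (log2 1.27, SE 0.21, edgeR adjusted p = 0.00068), *PPIA* from 834 ± 85.2 to 1687 ± 363.5 CPM (log2 1.02, SE 0.17), *ACTB* from 4099 ± 513 to 7398 ± 1602 CPM (log2 0.85, SE 0.19) and *HPRT1* from 31.9 ± 2.72 to 50.3 ± 8.90 CPM (log2 0.66, SE 0.13; SD, n = 3 in all). *TBP* (log2 0.39), *GUSB* (0.19), *B2M* (0.15) and *YWHAZ* (0.14) were not called. Within a library, the log2 ratio of *GAPDH* to each of the 8 was higher with Ad CMV 3xFlag-*Esrrg*, from 0.45 (*RPLP0*) to 1.55 (*B2M* and *YWHAZ*). These differences of ratios were not tested.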
